A study of Mus musculus with 6 samples.

Results

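The genes described here are the integrins, cadherins, protocadherins, axon guidance ligands and receptors, claudins, connexins and Icam, Vcam and Ncam adhesion molecules of mouse embryonic fibroblasts (MEFs), chosen by gene name among the genes on the minus strand. The name pattern matched 207 of the 38483 genes in the count files, and the 89 on the minus strand (88 symbols) are the members. The other 118 lie on the plus strand, where all 19214 genes are listed at 0 in every culture, so Itgb1, Itgav, Cdh5, Nrp1, Robo1, Gja1 and Icam1, among others, were not measured. RNA came from 3 wild-type (WT) cultures and 3 cultures with a heterozygous knockout of Nipbl (Nipbl+/-), the gene of the factor that loads the cohesin ring onto chromosomes. All were untreated CD1 cells at passage 3, grown in DMEM with fetal bovine serum from E14.5 littermates whose limbs, brain and internal organs had been taken out. By the methods these embryos came from a single pregnant mouse, and nothing ties a culture to an embryo, so p-values measure the spread between these cultures, which may be smaller than that between litters.

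Total counts lay between 20307454 and 25990783 per culture, and members took 0.504% to 0.54% of them. Levels are TMM-scaled CPM, a gene's count per total count. Nipbl was at 128, 145 and 135 CPM in WT replicates 1 to 3 and at 101, 101 and 100.3 CPM in Nipbl+/- replicates 1 to 3, with no overlap. Xist, the RNA of the inactive X chromosome, was near 0 in WT replicates 1 and 2 and Nipbl+/- replicate 3 and at 301 CPM or more in the other 3, so each genotype held cultures of both kinds. Of 17 fibroblast markers 13 are on the plus strand. Of the other 4, Fn1 (fibronectin) averaged 16030 CPM in WT and 17360 CPM in Nipbl+/- cultures, which overlapped, and Tcf21 was at 0 or near it. Prrx1 averaged 321 CPM in WT and 261 CPM in Nipbl+/- cultures (log2 fold change -0.30, adjusted p = 0.0661) and Fap 29.3 and 45.5 CPM (0.64, adjusted p = 0.181), both without overlap and neither called. Of 22 macrophage markers 8 are on the plus strand. The other 14 summed to 69.4 to 93.4 CPM in WT and 111 to 224 CPM in Nipbl+/- cultures, highest in Nipbl+/- replicate 2. The largest part of this sum was Lyz2, at 45.3, 33.4 and 33.9 CPM in WT and 65.5, 112 and 52.9 CPM in Nipbl+/- cultures. None of the 14 was called, but 12 had a higher level at an unadjusted p under 0.05. In such bulk RNA, fewer cells of a type and less RNA per cell cannot be told apart. WT replicate 2 was the lowest of the 3 WT cultures for 34 of the 64 members tested and the highest for 20. The same was not counted over all tested genes, so this may hold for that culture as a whole.

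Cells hold on to matrix through integrins, which are pairs of an alpha and a beta chain, and to each other through cadherins, while claudins and connexins form tight and gap junctions. Guidance ligands steer growing axons and migrating cells: netrins act on Dcc, Neo1 and Unc5 receptors, Slits on Robos, semaphorins on plexins and neuropilins, and ephrins on Eph receptors. The same receptors act in mesenchyme, vessels and immune cells.

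In Nipbl+/- MEFs the netrin receptor Unc5b and the semaphorin receptor Plxnc1 were lower and the protocadherin Pcdh9 was higher than in WT. These were the only calls among the 64 members that passed a filter on low counts, where a call is an adjusted p under 0.05 in edgeR's quasi-likelihood test over all 9061 tested genes. The call of 1 member higher (1.56%) stands beside 1.04% of all tested genes, and that of 2 lower (3.12%) beside 0.916%. At an unadjusted p under 0.05, 12 members (18.8%) were lower, beside 7.95% of all tested genes, and 4 (6.25%) were higher, beside 8.98%. The Nipbl+/- cultures were all above the WT cultures for 6 members (9.38%, beside 12% of all tested genes) and all below them for 9 (14.1%, beside 10.8%). The log2 fold change (Nipbl+/- against WT throughout) was below 0 for 41 members (64.1%), beside 51.6% of all tested genes. Its median was -0.08 over the members and -0.006 over all tested genes, and -0.0004 over the members without WT replicate 3. No member differed by 2-fold.

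**Figure D1:**
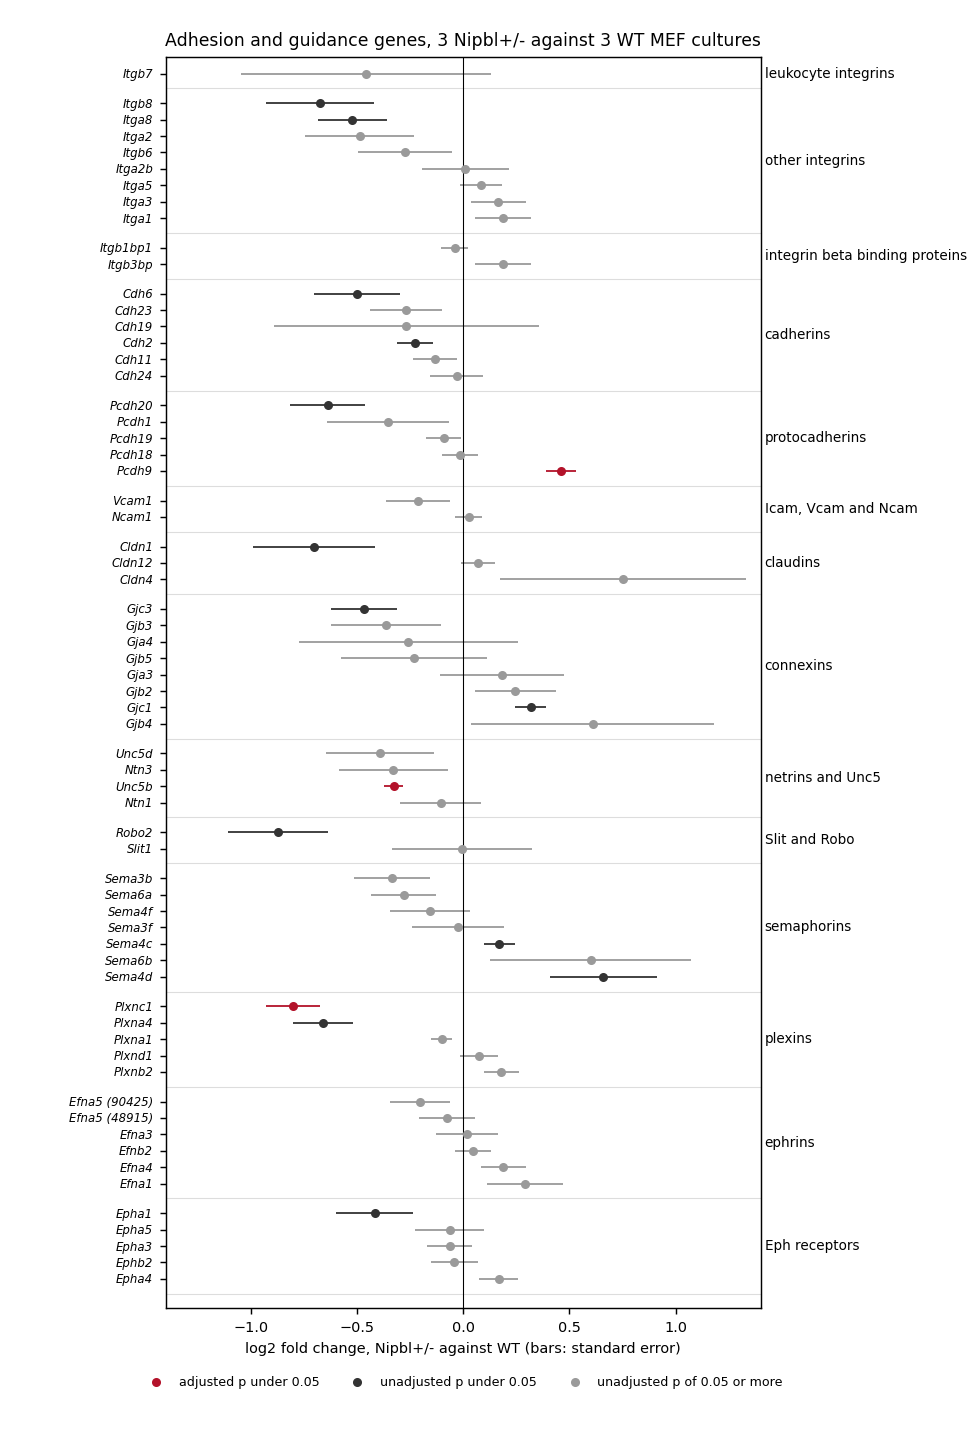
Log2 fold change of each of the 64 tested members (x axis, 3 Nipbl+/- against 3 WT cultures, bars are standard errors), grouped by role. Unc5b, Plxnc1 and Pcdh9, past the adjusted threshold, are in red, and 41 points lie below 0.

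The 250 bases before the RefSeq start of these 3 genes are shown because they are the members with a call. They are read 5′ to 3′ on the minus strand of GRCm38.p6, at chr10:60831582-60831831 for Unc5b, chr10:94944846-94945095 for Plxnc1 and chr14:93890670-93890919 for Pcdh9. Capitals mark GC boxes (GGGCGG or CCGCCC, letters that transcription factors of the Sp family bind).
Unc5b: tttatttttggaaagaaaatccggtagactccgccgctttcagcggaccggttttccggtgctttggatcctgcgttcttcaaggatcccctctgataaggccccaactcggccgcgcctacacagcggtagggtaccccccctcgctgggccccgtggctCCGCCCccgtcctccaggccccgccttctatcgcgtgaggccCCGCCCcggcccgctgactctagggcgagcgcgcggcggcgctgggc
Plxnc1: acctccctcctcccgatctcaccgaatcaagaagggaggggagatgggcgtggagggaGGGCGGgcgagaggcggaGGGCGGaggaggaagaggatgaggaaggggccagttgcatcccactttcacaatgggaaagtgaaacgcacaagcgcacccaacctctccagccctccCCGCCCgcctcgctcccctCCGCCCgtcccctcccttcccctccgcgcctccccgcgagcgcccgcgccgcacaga
Pcdh9: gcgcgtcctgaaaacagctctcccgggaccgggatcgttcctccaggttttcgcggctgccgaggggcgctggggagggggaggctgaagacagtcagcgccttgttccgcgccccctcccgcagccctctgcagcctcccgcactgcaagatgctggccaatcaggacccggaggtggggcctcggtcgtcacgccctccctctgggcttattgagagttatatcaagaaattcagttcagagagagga
Unc5b held 2 GC boxes, Plxnc1 4 and Pcdh9 0, and 32.7% of 32851 promoters of this length held at least 1. TATAAA, on either strand, was in none of the 3 and in 12.4% of all promoters. CCAAT, on either strand, was in Pcdh9 alone and in 33.8% of all promoters. The windows of Plxnc1 and Pcdh9 start beyond the gene ends that the count files use, and Pcdh9 has a further RefSeq start close by. The bases just after the start were in 1 GENCODE M21 transcript of Unc5b, 3 of Pcdh9 and 0 of Plxnc1. The start used for Plxnc1 is therefore less certain. RefSeq promoters were at hand for 46 of the 63 tested member symbols.

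Unc5b (ENSMUSG00000020099, chr10:60762610-60831581) encodes a netrin receptor known from vessel sprouting and axon repulsion. It was at 503, 502 and 493 CPM in WT replicates 1 to 3 and at 397, 411 and 386 CPM in Nipbl+/- replicates 1 to 3, with means of 499 ± 5.53 and 398 ± 12.6 (SD, n = 3). The groups were far apart for the spread within each. The log2 fold change was -0.33 (SE 0.04, adjusted p = 0.0213), a level 0.797 times that of WT. The call was lost without WT replicate 1 (adjusted p = 0.0949) or without Nipbl+/- replicate 1 (0.0864), 2 (0.0723) or 3 (0.058), while the log2 fold change stayed between -0.35 and -0.31. Of 12 endothelial markers 5 are on the plus strand. The sum of the others overlapped, at 72.5 to 104 CPM in WT and 72.2 to 95.4 CPM in Nipbl+/- cultures. Most of it was Flt1, at 66.5, 90.75 and 52.9 CPM in WT and 61.65, 81.9 and 54.9 CPM in Nipbl+/- cultures. Kdr averaged 12.9 CPM in WT and 12.8 CPM in Nipbl+/- cultures, and Pecam1 was under 0.4 CPM in every culture. Unc5d, of the same receptor family as Unc5b, was low, at 1.49 to 2.22 CPM in WT and 1.19 to 1.72 CPM in Nipbl+/- cultures (adjusted p = 0.484). Unc5a, Unc5c, Ntn4 and Ntn5 are on the plus strand and were not measured. The ligands on the minus strand were not called either. Ntn1 (netrin 1) was at 11.5, 9.61 and 16.05 CPM in WT and 11.5, 13.0 and 10.0 CPM in Nipbl+/- cultures, which overlapped. For Ntn3 the log2 fold change was -0.33 (adjusted p = 0.573). The other netrin receptors, outside the name pattern, gave 0.08 for Neo1, at 182 to 193 CPM in WT, and -0.46 for Dcc, at 0.88 to 1.91 CPM in WT, and neither was called.

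Plxnc1 (ENSMUSG00000074785, chr10:94790866-94944578) encodes plexin C1, the receptor of semaphorin 7A, known from immune cells and neurons. It was at 13.9, 13.3 and 17.03 CPM in WT and at 9.16, 7.80 and 8.50 CPM in Nipbl+/- replicates 1 to 3 (means 14.8 ± 1.99 and 8.48 ± 0.679, SD, n = 3). Every Nipbl+/- culture was below every WT culture. The log2 fold change was -0.80 (SE 0.13, adjusted p = 0.0261). The call held without WT replicate 2 (adjusted p = 0.0226), and leaving out any other culture lost it: without WT replicate 1 the adjusted p was 0.103, without WT replicate 3 0.0501, and without Nipbl+/- replicates 1, 2 and 3 0.0883, 0.0988 and 0.0707. The macrophage marker sum was higher in the cultures where Plxnc1 was lower, and its part in this result was not tested. Plxna4, a plexin of class 3 and 6 semaphorins, was at 28.4, 39.6 and 29.3 CPM in WT and at 21.2, 22.6 and 17.7 CPM in Nipbl+/- cultures. These did not overlap, but the gene missed the threshold, with a log2 fold change of -0.66 (SE 0.14, adjusted p = 0.0595). It was called by DESeq2 (adjusted p = 0.000587), by edgeR's exact test (0.00223) and without the filter (0.0195).

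The plexins with the highest RPKM, the deposited value per length of gene, were not called. Plxnb2, a receptor of class 4 semaphorins, averaged 87.3 RPKM over the 6 cultures and was at 631, 527 and 650 CPM in WT and at 664, 726 and 657 CPM in Nipbl+/- cultures (adjusted p = 0.317). Plxna1, a co-receptor of class 3 semaphorins, averaged 38.8 RPKM and was at 391, 358 and 378 CPM in WT and at 348, 349 and 354 CPM in Nipbl+/- cultures (adjusted p = 0.341). Both neuropilins are on the plus strand. Plxnd1 had a log2 fold change of 0.07.

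Of 7 tested semaphorins none was called, and their median log2 fold change was -0.03. Sema3f, a secreted repellent, had the highest level, 32.3 RPKM, with 129, 72.5 and 141 CPM in WT and 124, 98.1 and 115 CPM in Nipbl+/- cultures. WT replicate 2 lay far below the other WT cultures. Sema4d, a membrane semaphorin known from lymphocytes and bone, was at 1.32, 1.20 and 1.21 CPM in WT and at 1.398, 2.33 and 2.15 CPM in Nipbl+/- cultures (log2 fold change 0.66, adjusted p = 0.242). It was highest in Nipbl+/- replicate 2, as was the sum of the macrophage markers, at 139, 224 and 111 CPM in Nipbl+/- replicates 1 to 3. Between Nipbl+/- replicates 1 and 3 the order differed, with Sema4d higher in replicate 3 and the marker sum higher in replicate 1. The part of the macrophage markers in this was not tested. Sema4c was at 26.2, 23.0 and 24.6 CPM in WT and at 27.2, 27.4 and 28.5 CPM in Nipbl+/- cultures, without overlap (log2 fold change 0.17, adjusted p = 0.283).

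Robo2, a Slit receptor, had the lowest log2 fold change of all members, -0.87 (SE 0.24, adjusted p = 0.105), and was not called. It was at 11.9, 8.32 and 13.4 CPM in WT and at 7.53, 6.497 and 4.30 CPM in Nipbl+/- cultures. The groups did not overlap, although WT replicate 2 came close to Nipbl+/- replicate 1. Robo2 was called by DESeq2 (adjusted p = 0.00644), by edgeR's exact test (0.017), without the filter (0.0493), with Xist as a covariate (0.0226) and without WT replicate 2 (0.0472). Slit1, the only Slit on the minus strand, was at 0.953, 0.534 and 1.07 CPM in WT and at 0.812, 0.994 and 0.716 CPM in Nipbl+/- cultures.

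**Figure D2:**
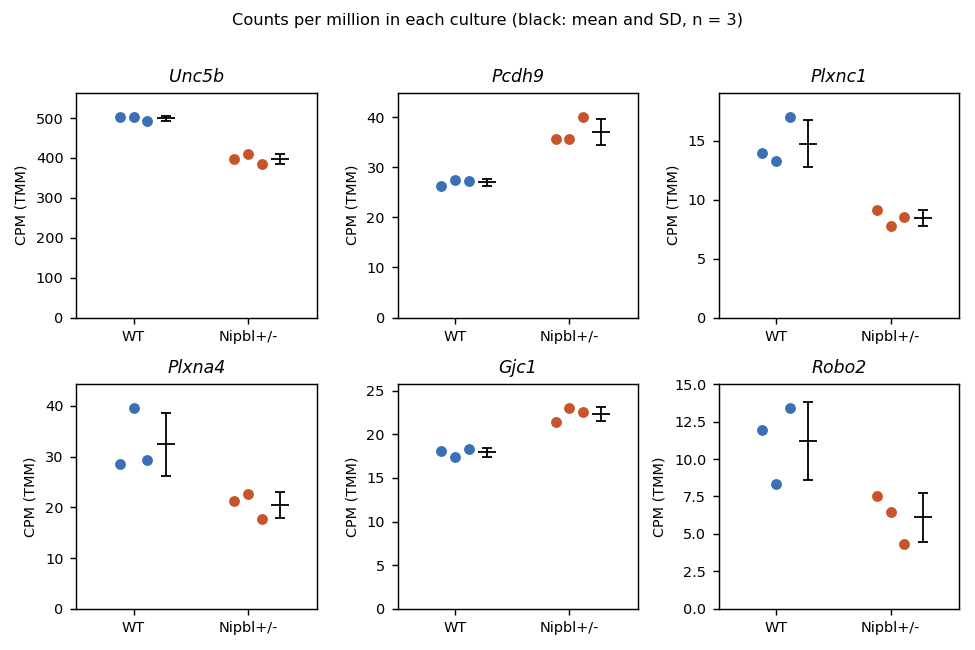
CPM in each culture (points, WT blue, Nipbl+/- orange, y axes from 0) with mean and SD (black, n = 3) for the 6 members with the smallest p. Unc5b, Pcdh9 and Plxnc1 passed the adjusted threshold, Plxna4, Gjc1 and Robo2 did not, and in none of the 6 do the groups overlap.

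Ephrins and Eph receptors signal where cells touch. None of 6 ephrin entries or 5 Eph receptors tested was called, and the medians of their log2 fold changes were 0.03 and -0.06. Efnb2, the ephrin of arteries, had the highest level among ephrins (18.2 RPKM) and was at 78.1, 86.3 and 75.9 CPM in WT and at 91.8, 82.4 and 73.7 CPM in Nipbl+/- cultures. Efna4 was at 11.2, 11.3 and 9.93 CPM in WT and at 11.4, 13.1 and 12.4 CPM in Nipbl+/- cultures (adjusted p = 0.402), and 10.5% of its exonic bases overlap a plus-strand antisense gene. Efna5 is listed as 2 overlapping entries that could split reads, and its values are uncertain. Among receptors, Epha3 (18.6 RPKM) was at 102, 115 and 117 CPM in WT and at 109, 120 and 89.8 CPM in Nipbl+/- cultures. Epha4 (17.6 RPKM) was at 104, 122 and 100.1 CPM in WT and at 127, 130 and 109 CPM in Nipbl+/- cultures. Both overlapped between genotypes. Epha1 was at 11.9, 16.4 and 10.8 CPM in WT and at 10.1, 11.04 and 8.12 CPM in Nipbl+/- cultures (log2 fold change -0.42, adjusted p = 0.288), and shares 6.01% of its exonic bases with Zyx on the other strand.

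Among 13 tested guidance receptors (Unc5, Robo, plexin and Eph) 2 were called lower (15.4%, beside 0.916% of all tested genes), and at an unadjusted p under 0.05 5 were lower (38.5%, beside 7.95%) and 0 higher (beside 8.98%). Among 16 tested ligands (netrins, Slit1, semaphorins and ephrins) 0 were called, and 2 were higher (12.5%) and 0 lower at that p. The median log2 fold change was -0.10 for the receptors and -0.02 for the ligands. This split was made after the values were seen, and the difference between the sets was not tested.

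Pcdh9 (ENSMUSG00000055421, chr14:93015512-93888732), a non-clustered protocadherin best known from neurons, was the 1 member called higher. It was at 26.2, 27.4 and 27.3 CPM in WT and at 35.5, 35.7 and 40.1 CPM in Nipbl+/- cultures (means 26.96 ± 0.638 and 37.1 ± 2.57, SD, n = 3). The log2 fold change was 0.46 (SE 0.07, adjusted p = 0.0234). The call held without WT replicate 2 (adjusted p = 0.0301), and leaving out any other culture lost it: without WT replicate 1 the adjusted p was 0.118, without WT replicate 3 0.0501, and without Nipbl+/- replicates 1, 2 and 3 0.0841, 0.0772 and 0.0593. Schwann, neuronal and glial markers, 8 of 12 on the plus strand, summed to 0.56 to 1.11 CPM in WT and 1.44 to 2.14 CPM in Nipbl+/- cultures, with Sox10 and Gfap under 0.4 CPM in every culture. Except in WT replicate 3, the neuronal marker Elavl4 made up most of this sum. It was at 0.544, 0.668 and 0.186 CPM in WT and 0.812, 1.49 and 1.29 CPM in Nipbl+/- cultures, without overlap (log2 fold change 1.35, adjusted p = 0.162). Elavl3 averaged 0.121 CPM in WT and 0.242 CPM in Nipbl+/- cultures. Their part in the Pcdh9 result was not tested.

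Pcdh20 was not called and was at 6.31, 6.19 and 8.31 CPM in WT and at 4.87, 3.71 and 4.82 CPM in Nipbl+/- cultures (log2 fold change -0.64, adjusted p = 0.112, and 0.0358 in edgeR's exact test). The most abundant protocadherins per length were Pcdh18 (18.5 RPKM) and Pcdh19 (17.5 RPKM). Pcdh18 was at 95.7, 109 and 93.4 CPM in WT and at 92.9, 109 and 93.4 CPM in Nipbl+/- cultures, nearly the same values. Pcdh19, the protocadherin of an X-linked epilepsy, was at 194, 182 and 201 CPM in WT and at 160, 184 and 197 CPM in Nipbl+/- cultures. The clustered Pcdhb genes are on the plus strand.

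Cadherins of the classical type join cells through catenins. All 6 tested cadherins had a log2 fold change below 0, with a median of -0.25, but none was called. Cdh11, the cadherin of mesenchyme, had the highest level of all members (281 RPKM) and was at 1267, 1459 and 1131 CPM in WT and at 1058, 1314 and 1145 CPM in Nipbl+/- cultures, which overlapped. Cdh2 (N-cadherin, 28.2 RPKM) was at 238, 281 and 243 CPM in WT and at 211, 201 and 239 CPM in Nipbl+/- cultures (log2 fold change -0.23, adjusted p = 0.237). Cdh6 was at 9.98, 10.4 and 8.82 CPM in WT and at 7.58, 8.33 and 4.68 CPM in Nipbl+/- cultures, without overlap (log2 fold change -0.50, adjusted p = 0.267). Ncam1, a neural cell adhesion molecule also made by mesenchyme, averaged 103 RPKM and was at 413, 423 and 401 CPM in WT and at 403, 460 and 395 CPM in Nipbl+/- cultures. Vcam1, the ligand of integrin alpha 4 beta 1, averaged 22.8 RPKM and was at 76.6, 100.3 and 81.2 CPM in WT and at 57.4, 85.9 and 79.3 CPM in Nipbl+/- cultures.

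**Figure D3:**
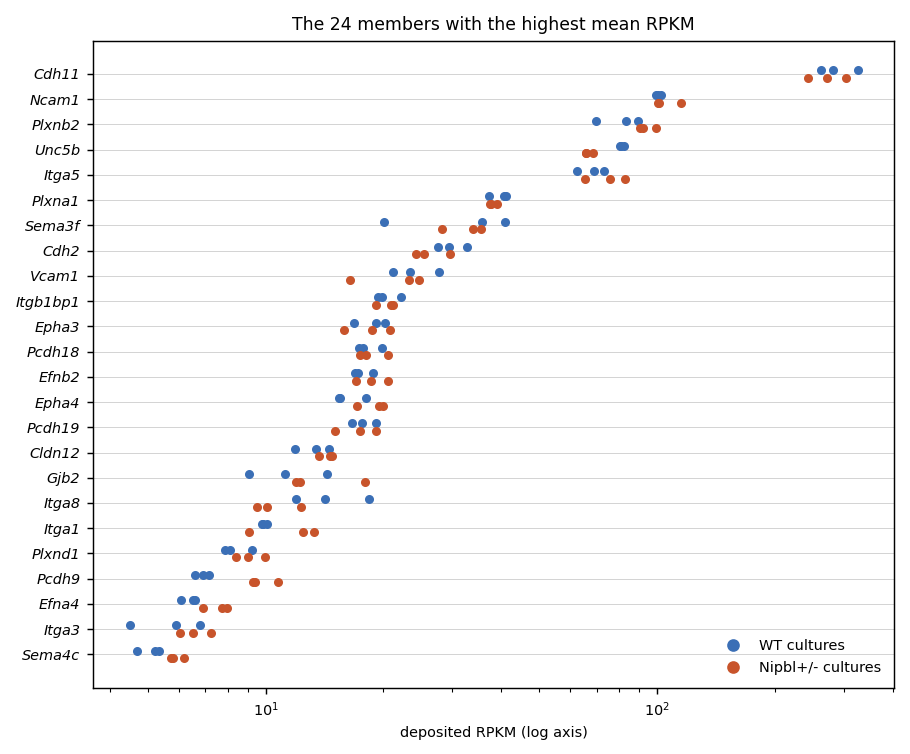
Deposited RPKM (log axis) of the 24 members with the highest mean RPKM, 1 point per culture (WT blue, Nipbl+/- orange). Cdh11 at a mean of 281 RPKM and Ncam1 at 103 RPKM lead, and only Unc5b and Pcdh9 of those shown were called.

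Of the 64 tested members 19 averaged 10 RPKM or more, 28 from 1 to under 10 and 17 under 1. After Cdh11 and Ncam1 the order was Plxnb2, Unc5b (73.9 RPKM), Itga5 (71.5 RPKM), Plxna1 and Sema3f. The coefficient of variation between WT cultures had a median of 9.2% among members at 10 RPKM or more and of 28.1% among those under 1.

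Integrin alpha 5, the fibronectin receptor chain (Itga5), was the most abundant integrin subunit measured. It was at 323, 341 and 279 CPM in WT and at 373, 294 and 333 CPM in Nipbl+/- cultures, which overlapped. Itga8, a chain of mesenchyme that also binds fibronectin, averaged 12.7 RPKM and was at 142, 92.4 and 106 CPM in WT and at 92.5, 75.3 and 69.4 CPM in Nipbl+/- cultures (log2 fold change -0.52, SE 0.16, adjusted p = 0.150, and 0.0098 in DESeq2). Nipbl+/- replicate 1 lay just above WT replicate 2. Itgb8, a partner of alpha v that activates latent TGF-beta, was at 12.9, 7.34 and 12.3 CPM in WT and at 7.40, 8.10 and 4.78 CPM in Nipbl+/- cultures (log2 fold change -0.67, adjusted p = 0.234). Itgb6, also an alpha v partner, was at 1.68, 1.29 and 1.44 CPM in WT and at 1.26, 1.19 and 1.19 CPM in Nipbl+/- cultures (adjusted p = 0.582).

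The collagen-binding chains gave no call. Itga1 was at 62.9, 64.0 and 60.0 CPM in WT and at 76.8, 81.6 and 54.4 CPM in Nipbl+/- cultures (adjusted p = 0.517). Itga2 was at 11.1, 7.79 and 10.1 CPM in WT and at 5.14, 9.90 and 5.49 CPM in Nipbl+/- cultures (adjusted p = 0.383). Itga3, a laminin receptor chain, was at 36.1, 27.3 and 39.7 CPM in WT and at 35.7, 38.3 and 41.5 CPM in Nipbl+/- cultures. Itga2b, the platelet chain, was at 2.95, 2.89 and 3.20 CPM in WT and at 3.61, 2.29 and 3.25 CPM in Nipbl+/- cultures. These 8 subunits were split evenly, 4 above and 4 below 0, with a median log2 fold change of -0.13.

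A separation of fibroblast from leukocyte integrins could not be made. Of 8 leukocyte subunits (Itgal, Itgam, Itgax, Itgad, Itgae, Itga4, Itgb2 and Itgb7) only Itgb7 is on the minus strand. It was at 0.817, 0.267 and 1.30 CPM in WT and at 0.225, 0.764 and 0.716 CPM in Nipbl+/- cultures (log2 fold change -0.46, SE 0.59, adjusted p = 0.746), from 5 to 28 counts per culture. Its groups overlapped, while the macrophage marker sum in the same cultures did not. Lymphoid markers summed to at most 0.05 CPM in WT and 0.11 CPM in Nipbl+/- cultures. Of 8 mast cell markers 2 are on the plus strand, and Cpa3 and Fcer1a were at 0. The sum was 0.93 to 1.45 CPM in WT and 1.76 to 3.68 CPM in Nipbl+/- cultures, without overlap. Ms4a2 alone rose, from a mean of 0.483 to 1.95 CPM. Of these only Ms4a2 was tested, and it was not called (log2 fold change 1.99, adjusted p = 0.0559). Mcpt4 averaged 0.287 CPM in WT and 0.234 CPM in Nipbl+/- cultures, Cma1 0.288 and 0.254 CPM and Hdc 0.136 and 0.0746 CPM. The part of these cell types in the Itgb7 values was not tested. Of the integrin binding proteins that share the name pattern, Itgb1bp1 was at 68.5, 69.8 and 75.1 CPM in WT and at 72.6, 71.3 and 63.6 CPM in Nipbl+/- cultures. Itgb3bp, a centromere protein, was at 6.08, 5.43 and 5.01 CPM in WT and at 6.04, 6.69 and 6.06 CPM in Nipbl+/- cultures.

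**Figure D4:**
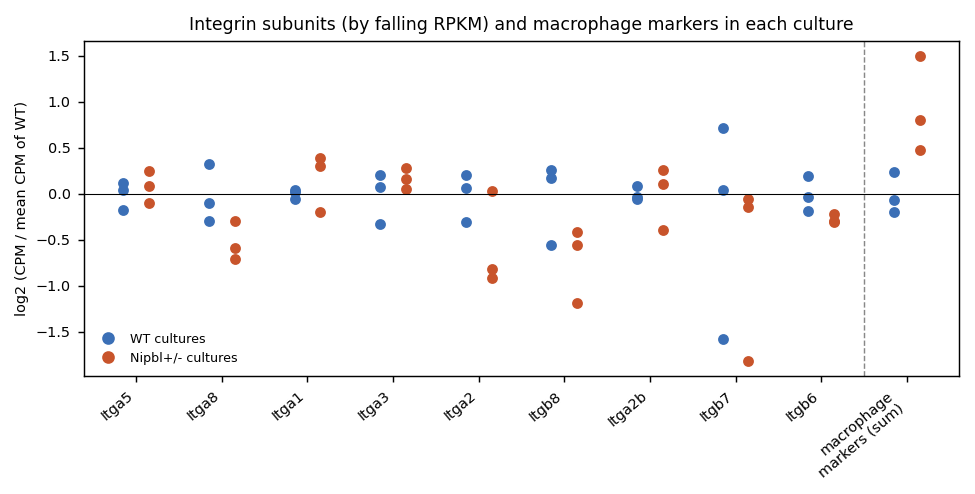
Log2 of CPM over the mean CPM of WT in each culture (WT blue, Nipbl+/- orange) for the 9 tested integrin subunits, by falling RPKM, and for the summed macrophage markers. The subunits overlap between genotypes except Itgb6 (1.29 to 1.68 CPM in WT, 1.19 to 1.26 CPM in Nipbl+/- cultures), and the marker sum does not overlap (69.4 to 93.4 against 111 to 224 CPM).

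Claudins and connexins were mostly low. Gjc1 (connexin 45) was at 18.1, 17.4 and 18.3 CPM in WT and at 21.4, 23.0 and 22.5 CPM in Nipbl+/- cultures, without overlap, and missed the threshold (log2 fold change 0.32, SE 0.07, adjusted p = 0.0656, and 0.0385 in edgeR's exact test). Gjc3, known from myelinating glia, was at 5.40, 5.52 and 5.10 CPM in WT and at 4.42, 3.29 and 3.91 CPM in Nipbl+/- cultures (log2 fold change -0.47, adjusted p = 0.174). Gjb2 (connexin 26) had the highest level among connexins (12.8 RPKM), at 28.9, 23.2 and 35.3 CPM in WT and 44.4, 29.6 and 29.7 CPM in Nipbl+/- cultures. Cldn12 led the claudins (13.8 RPKM), at 52.9, 64.5 and 57.3 CPM in WT and 63.7, 62.4 and 57.2 CPM in Nipbl+/- cultures. Cldn1, a claudin of the epidermal barrier, was at 16.3, 14.8 and 6.96 CPM in WT and at 6.81, 9.06 and 7.496 CPM in Nipbl+/- cultures (log2 fold change -0.70, adjusted p = 0.269). WT replicate 3 lay among the Nipbl+/- cultures, and without it Cldn1 was called (-0.996, adjusted p = 0.0291). Of 10 epithelial markers 3 are on the plus strand and Esrp1 was at 0. The sum was 19.7 to 20.7 CPM in WT and 16.2 to 19.6 CPM in Nipbl+/- cultures. Krt19, most of the sum, averaged 13.8 CPM in WT and 10.4 CPM in Nipbl+/- cultures (adjusted p = 0.122), while Krt8 averaged 0.378 and 1.08 CPM (adjusted p = 0.227) and Krt14, too low to test, 0.0464 and 0.386 CPM, each without overlap. The part of these markers in the junction values was not tested.

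The partners of these receptors are summarised by list, beside 1.04% of all tested genes called higher and 0.916% lower, and 8.98% higher and 7.95% lower at an unadjusted p under 0.05. Of 20 tested genes of the integrin adhesion complex, the docking protein Bcar1 was called higher (from a mean of 107 to 129 CPM, log2 fold change 0.27, adjusted p = 0.0469) and the kinase Ptk2b lower (43.3 to 29.6 CPM, -0.55, adjusted p = 0.0301). At an unadjusted p under 0.05, 6 were higher and 5 lower, and the median was -0.02. Among these, talin 1 (Tln1) averaged 1471 CPM in WT and 1670 CPM in Nipbl+/- cultures (adjusted p = 0.0579), talin 2 (Tln2) 272 and 203 CPM (0.0681), and the kindlin of blood cells, Fermt3, 1.59 and 3.36 CPM (0.163). Of 19 entries for guidance receptors and effectors outside the name pattern (Mical3 has more than 1), the collapsin response mediator Dpysl3 was called higher (1059 to 1356 CPM, 0.36, adjusted p = 0.0176). At an unadjusted p under 0.05, 4 were higher and 3 lower, and the median was -0.07. Of 12 other adhesion receptors, Cadm2 was called lower (5.39 to 2.17 CPM, -1.32, adjusted p = 0.0469). At an unadjusted p under 0.05, 0 were higher and 3 lower, and the median was -0.02. No call was made by edgeR's quasi-likelihood test among 4 genes of the cadherin-catenin complex, 9 of the wider cadherin superfamily or 6 tight and gap junction partners. At an unadjusted p under 0.05 these lists, in that order, had 1, 2 and 1 genes higher and 0, 3 and 0 lower. Their medians were 0.07, -0.45 and 0.08.

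Of the 25 members not tested, 8 were at 0 in every culture and 17 had counts, at most 16 in a culture. Those at 0 included Cldn8, Cldn13, Cldn17, Cldn18, Cldn26, Epha8 and Itgb2l. Sema4a (2 to 7 counts in WT, 7 to 16 in Nipbl+/- cultures), Efnb3 and Ephb1 were among those with a few counts, at which no difference could be tested.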

How the data were processed

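Ribosomal RNA was removed and libraries were made with the TruSeq RNA kit. The authors aligned reads with TopHat2 2.0.10 to mm10 and Ensembl 72, and deposited a raw count and an RPKM value (count per length and library size) per gene and culture. The submitters' processing notes also name edgeR. The counting tool and its strand setting are not given in the sources used here. Of the 62 tested members in the GENCODE M21 annotation, 12 have exons overlapping a plus-strand gene. Besides Efna4 and Epha1, these include Efna3 (14.1% of exonic bases), Itgb1bp1 (11.4% with Asap2 and 5.54% with Cpsf3), Plxna1 (10.7%), Itgb3bp (8.59%) and Sema4c (7.27%).

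Counts were filtered with filterByExpr (minimum count 10), scaled by TMM and tested with edgeR 4.0.16 in R 4.3.3 (glmQLFTest, genotype alone, 3 against 3 cultures) with Benjamini-Hochberg adjustment and a threshold of 0.05. CPM compares cultures and RPKM compares genes. Members, lists and alternatives were chosen with earlier results of these data known. Named with all values were called members, integrin subunits and, per role, the member with the smallest p and the 2 with the highest RPKM, besides members with an unadjusted p under 0.05. Sema4a, Efnb3, Ephb1, Neo1, Dcc, Tln1, Tln2, Fermt3, single markers and other members given by a fold change were named after their values were seen. Alternatives were other scalings and filters, edgeR's exact test, DESeq2 1.42.0, a replicate block, Xist as a covariate and each culture left out. The labels give no batch, and cultures of a genotype differed by more than counting noise (chi-square per degree of freedom 10.1 to 34.6). The steps were tested on simulated data. Promoters are RefSeq's (GRCm38.p6), and exon overlaps came from GENCODE M21.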

Additional observations from a re-analysis of the deposited data

How the results depend on the processing

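With 3 cultures a genotype, calls depended on single cultures. Members called higher (1) became 2 with edgeR's exact test and 0 with the replicate block, and 0 to 1 when a culture was left out. Members called lower (2) became 4 without the filter, 5 with the exact test and 5 with DESeq2, and 0 to 3 when a culture was left out. All genes called higher (94) became 142 with library size alone, 173 without the filter, 219 with the exact test, 237 with DESeq2, 34 with the block and 1 to 130 when a culture was left out. All genes called lower (83) became 152, 213 and 212 without the filter, with the exact test and with DESeq2, 52 with the block and 2 to 138 when a culture was left out. The replicate numbers share only a number (correlations of deviations -0.09, -0.048 and -0.21 for numbers 1, 2 and 3), and with the block the adjusted p was 0.0406 for Unc5b, 0.0503 for Pcdh9, 0.0528 for Plxnc1 and, newly called, 0.0476 for Plxna4.

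With a culture left out the median log2 fold change ranged from -0.0969 to -0.0004 for members, -0.2803 to -0.091 for cadherins, -0.1611 to 0.0581 for Eph receptors, -0.3746 to -0.1924 for netrins and Unc5, -0.1347 to -0.0731 for plexins (-0.062 with library size alone), -0.0435 to 0.1622 for semaphorins and -0.5146 to 0.1866 for Slit and Robo (-0.0058 without the filter, -0.8733 with CPM above 1). Of 613 fits of 41 named genes, 556 kept direction and side of the threshold, 16 lost a call, 13 gained a call and 28, of 11 genes, changed sign. The sign changed for Slit1 with library size alone (0.0295) and the block (0.0164), Itga2b with upper-quartile scaling (-0.001) and the block (-0.003), Sema3f with library size alone (0.0094) and the block (0.0243) and Pcdh18 with library size alone (0.0244). With a culture left out, ranges that crossed 0 were -0.006 to 0.1668 for Itga5, -0.8753 to 0.0843 for Itgb7, -0.0397 to 0.1198 for Efnb2, -0.2596 to 0.1233 for Ntn1, -0.2535 to 0.1866 for Slit1, -0.1334 to 0.1856 for Itga2b, -0.2685 to 0.1552 for Sema3f, -0.0941 to 0.0578 for Pcdh18, -0.0458 to 0.0672 for Ncam1, -0.1611 to 0.0453 for Epha3 and -0.0791 to 0.0152 for Itgb1bp1. The cause of these shifts was not tested.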
